A study of Homo sapiens with 12 samples.

Results

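WNT5A, WNT5B, DKK1, DKK2, DKK3, SFRP1, SFRP2, AXIN2, LEF1 and FZD7 were followed through the early phase of induced reprogramming in cells labelled MRG15 knock-out and in control cells. These 10 genes of the Wnt pathway were taken by their symbols from the 60660 gene identifiers of the table, and each symbol matched 1 identifier. The cells were dH1f, a fibroblast line derived from H1 human embryonic stem cells. They carried either the CRISPR vector lentiCRISPRv2 with a guide against MRG15, the product of the gene MORF4L1 (KO, guide code G22), or a non-targeting control (NT, labelled Wildtype). Messenger RNA was sequenced on day 6 after the OSKM factors (OCT4, SOX2, KLF4 and MYC) were supplied, and before them, here called day 0. The 4 groups were KO cells on day 6, NT cells on day 6, KO cells on day 0 and NT cells on day 0, with 3 libraries each. A single guide code stands behind all KO libraries, with no word on whether its cells were a pool or a clone, so what the guide does apart from MRG15 cannot be told apart from the loss itself. Time in culture and OSKM cannot be told apart either, as all day 6 cells received the factors. The labels do not call the replicates separate cultures. The p-values here reflect the spread among the 3 libraries within groups, estimated over all 4 groups together. That spread may be technical.

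Wnt proteins are secreted lipid-modified ligands that bind Frizzled receptors at the cell surface. In the canonical branch a Frizzled and an LRP co-receptor halt the breakdown of β-catenin, which then enters the nucleus and acts with TCF/LEF factors on genes such as AXIN2. Other ligands, WNT5A and WNT5B among them, act mainly through receptors such as ROR2 on cell movement and polarity. Dickkopf proteins (DKK) bind LRP co-receptors, and secreted Frizzled-related proteins (SFRP) bind the ligands themselves. Fibroblasts make many of these secreted proteins.

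MORF4L1, the target of the guide, stood at 1020 ± 52.2 in KO cells and 6956 ± 217 in NT cells on day 6 (SD, n = 3 each). On day 0 it stood at 1338 ± 71.9 in KO cells and 7773 ± 90.4 in NT cells. Levels are estimated normalised counts, obtained by inverting the variance-stabilising transformation (VST) of the deposited values. Differences are differences of mean VST values, on a log2 scale that is compressed for genes with few reads. A gene was called at an adjusted p under 0.05 in limma, over the 14858 genes whose VST values averaged 1 or more above the floor, which stands for 0 reads. Estimated depth was 17.9 to 22.2 M reads per library. In a principal component analysis the days separated on component 1 (87.1% of the variance) and KO from NT on component 2 (4.83%), and no library lay apart from its group. KO and NT libraries were also apart on component 1, more so on day 6. There KO lay at -70.6 to -70.1 and NT at -48.7 to -45.9, against 57.2 to 57.8 and 59.3 to 60.9 on day 0. The 10 fibroblast markers summed to 201112 to 214640 in KO and 572284 to 607403 in NT libraries on day 6, and to 866711 to 877350 in KO and 1174510 to 1253920 in NT libraries on day 0, with none of them at 0. Of these markers, 10 of 10 were lower in KO than in NT cells on day 6, and 5 were lower and 2 higher on day 0. Between the days 10 of 10 fell in KO cells, and 9 fell and 1 rose in NT cells. Of 8 pluripotency markers 7 were tested, of which 7 rose between the days in each genotype and 4 were higher in KO than in NT cells on day 6. The 6 epithelial markers rose in each genotype, and 3 were higher in KO than in NT cells on day 6, where they summed to 29479 to 30735 in KO and 22279 to 24649 in NT libraries. Of 5 keratinocyte markers 3 were tested, and all 3 rose in each genotype and were lower in KO than in NT cells on day 6, where the 5 summed to 6151 to 6473 in KO and 22525 to 23829 in NT libraries. Fewer fibroblasts and less RNA per fibroblast cannot be told apart in such bulk libraries, and the part of either in the changes below was not tested.

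**Figure D1:**
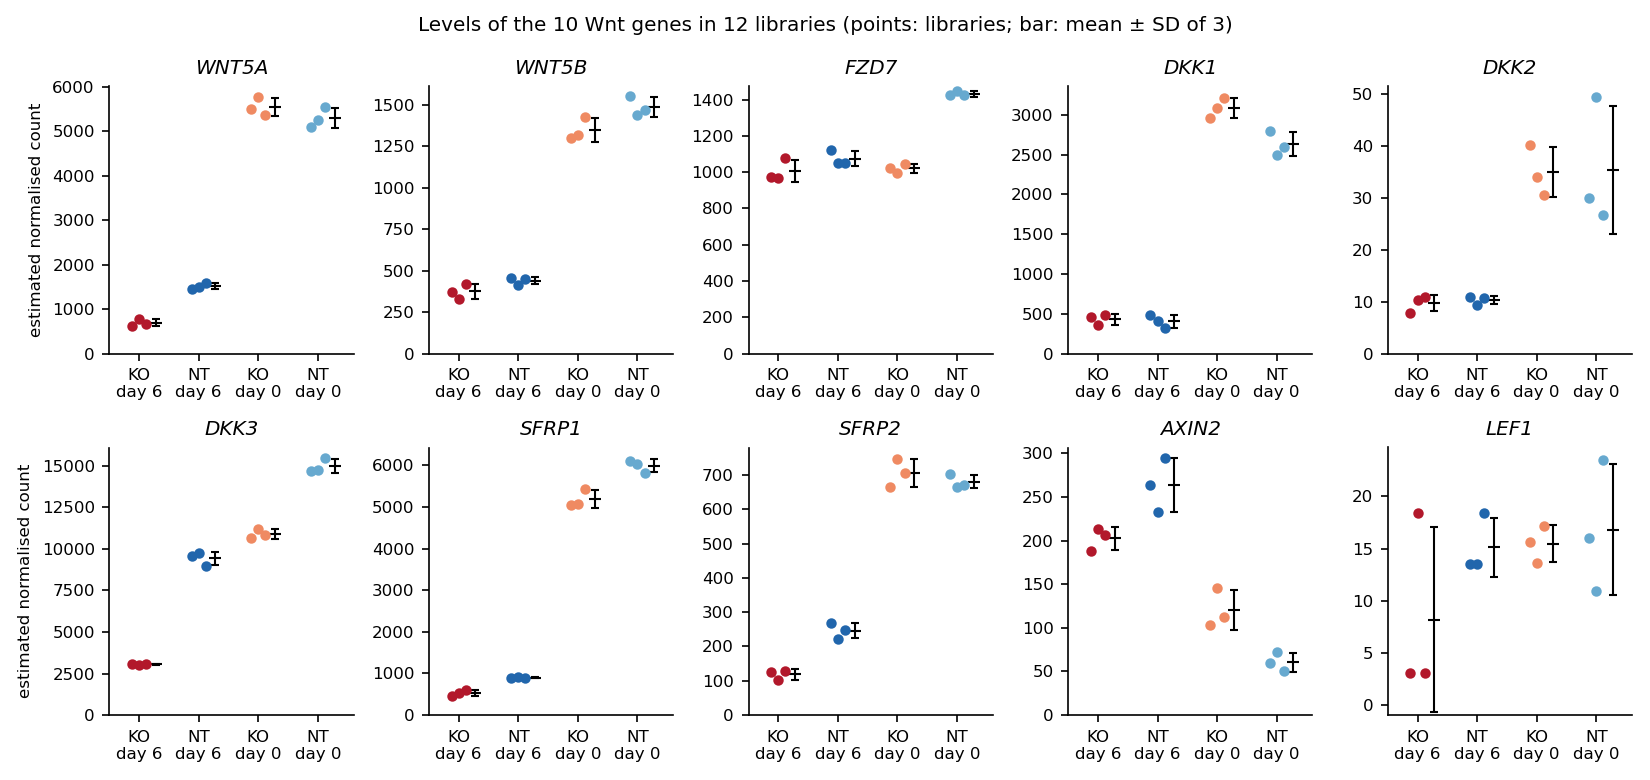
Estimated normalised counts (vertical axes, linear) of the 10 Wnt genes in KO and NT cells on day 6 and day 0, with points for libraries and bars for the mean ± SD of 3. The ligand, DKK and SFRP panels are high on day 0 and low on day 6, AXIN2 runs the other way, FZD7 is highest in NT cells on day 0, and LEF1 lies at or below 23.5 in all 12 libraries.

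WNT5A, the main noncanonical ligand of mesenchymal cells, was lower on day 6 in both genotypes, and on day 6 it was lower still in KO cells. Its transcript (ENSG00000114251.15, GRCh38 chromosome 3, 55465715 to 55490539, minus strand) stood at 627, 781 and 665 in the KO libraries and 1459, 1506 and 1583 in the NT libraries on day 6. On day 0 the values were 5491, 5760 and 5369 in KO and 5103, 5262 and 5545 in NT libraries. Every day 6 library thus lay below every day 0 library, the KO and NT libraries were apart on day 6, and they overlapped on day 0. Relative to day 0, WNT5A fell to 12.5% in KO cells (difference -2.91, SE 0.07, adjusted p = 1.31e-14) and to 28.6% in NT cells (difference -1.77, SE 0.07, adjusted p = 6.23e-12). KO cells had 45.6% of the NT level on day 6 (difference -1.08, SE 0.07, adjusted p = 1.42e-08), and on day 0 the difference of 0.06 did not pass the test (adjusted p = 0.582). The KO difference was unequal on the 2 days (interaction -1.14, SE 0.10, adjusted p = 1.45e-06).

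WNT5B, a close paralog of WNT5A, was lower on day 6 to a like extent in both genotypes. It (ENSG00000111186.13, chromosome 12, 1529891 to 1647243, plus strand) stood at 371, 331 and 422 in KO and 455, 415 and 450 in NT libraries on day 6. On day 0 it stood at 1299, 1316 and 1429 in KO and 1552, 1437 and 1472 in NT libraries. KO and NT libraries overlapped on day 6 and lay just apart on day 0. Between the days it fell to 27.8% in KO cells (difference -1.71, SE 0.08, adjusted p = 2.59e-11) and to 29.6% in NT cells (difference -1.64, SE 0.08, adjusted p = 6.86e-11). The KO difference on day 6 was -0.21 (SE 0.08, adjusted p = 0.0457), a call that 13 of 20 alternatives lost, with adjusted p of 0.0104 to 0.193 over all of them. It was lost without KO replicate 1 or 2 of day 6 (adjusted p = 0.0964 and adjusted p = 0.193), NT replicate 1 or 3 of day 6 (adjusted p = 0.128 and adjusted p = 0.113), KO replicate 1 or 2 of day 0 (adjusted p = 0.0551 and adjusted p = 0.0563) or any NT replicate of day 0 (adjusted p = 0.0509 to 0.0530). On day 0 it was -0.14 (adjusted p = 0.252), and the interaction of -0.07 was not called (adjusted p = 0.692). FBXL14, a gene on the opposite strand within the WNT5B interval, reached up to 356 estimated counts. The libraries were made with a stranded kit, but whether counting used the strand is not stated in those sources.

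Windows of 5 of the 10 genes were taken from the RefSeq promoter table, and the remaining genes were not examined. Of the windows taken, 4 are shown for genes that fell together on day 6. Each is the 250 bases before a transcription start (GRCh38.p14), 5′ to 3′ on the strand of the gene. Capitals mark matches, on either strand, to CTTTGAA or CTTTGAT (TCF/LEF), CACGTG (the E-box bound by MYC) or ATGCAAAT (the octamer bound by OCT4). WNT5A has 2 starts in the table, at chr3:55487307-55487556 and chr3:55481399-55481648 (windows, minus strand), and neither window holds a match.
WNT5A start 1: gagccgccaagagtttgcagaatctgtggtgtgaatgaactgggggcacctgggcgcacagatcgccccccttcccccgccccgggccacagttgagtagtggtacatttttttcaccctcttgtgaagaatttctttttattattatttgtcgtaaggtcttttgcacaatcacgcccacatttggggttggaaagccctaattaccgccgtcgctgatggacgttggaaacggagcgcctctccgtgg
WNT5A start 2: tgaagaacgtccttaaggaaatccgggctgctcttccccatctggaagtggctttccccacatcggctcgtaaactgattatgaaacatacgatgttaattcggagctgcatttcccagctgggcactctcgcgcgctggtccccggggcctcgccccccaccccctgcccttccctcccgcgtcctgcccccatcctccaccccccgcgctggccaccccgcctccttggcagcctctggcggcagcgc
DKK1 (chr10:52314031-52314280, plus strand) holds 1 TCF/LEF match, whose first base is at -95 from the start, and SFRP2 (chr4:153789084-153789333, minus strand) holds 1 octamer match in reverse complement, beginning at -35.
DKK1: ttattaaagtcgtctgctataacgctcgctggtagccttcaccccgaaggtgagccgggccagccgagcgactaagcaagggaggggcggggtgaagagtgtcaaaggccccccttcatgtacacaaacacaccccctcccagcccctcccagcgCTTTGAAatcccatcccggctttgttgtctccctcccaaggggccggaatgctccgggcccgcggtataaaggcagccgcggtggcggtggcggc
SFRP2: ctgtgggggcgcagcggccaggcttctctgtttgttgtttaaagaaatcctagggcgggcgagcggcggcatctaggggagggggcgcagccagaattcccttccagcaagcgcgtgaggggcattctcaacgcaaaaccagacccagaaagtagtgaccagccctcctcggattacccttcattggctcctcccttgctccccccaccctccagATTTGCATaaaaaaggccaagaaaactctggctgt
The 4 motifs do not overlap one another in these windows. Of the 35116 windows of this length in the table, 3.8% hold CTTTGAA, 2.26% CTTTGAT, 6.34% CACGTG and 1.63% ATGCAAAT. Neither of the 2 WNT5B windows nor the LEF1 window holds a match. A match describes these letters and is no evidence of binding.

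FZD7, a Frizzled receptor known from pluripotent cells, was lower on day 6 in NT cells and changed little between the days in KO cells. It (ENSG00000155760.2, chromosome 2, 202034587 to 202038445, plus strand) stood at 972, 970 and 1076 in KO and 1122, 1052 and 1049 in NT libraries on day 6, and at 1023, 997 and 1043 in KO and 1423, 1450 and 1424 in NT libraries on day 0. NT cells on day 0 thus lay above the other 3 groups, whose libraries ran from 970 to 1122. In NT cells FZD7 fell to 75.0% of day 0 (difference -0.40, SE 0.06, adjusted p = 1.47e-05), and in KO cells the difference was -0.02 (adjusted p = 0.745). KO cells had 71.3% of the NT level on day 0 (difference -0.47, SE 0.06, adjusted p = 4.38e-05) and 93.7% on day 6 (difference -0.09, adjusted p = 0.222). The interaction was 0.38 (SE 0.08, adjusted p = 0.00349), the one positive interaction called among the members.

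DKK1, an antagonist that binds LRP6 and is itself induced by β-catenin, fell by a similar step in both genotypes. It (ENSG00000107984.10, chromosome 10, 52314296 to 52318042, plus strand) stood at 456, 353 and 484 in KO and 482, 414 and 318 in NT libraries on day 6. On day 0 it stood at 2964, 3083 and 3216 in KO and 2790, 2494 and 2595 in NT libraries, where the KO libraries all lay above the NT ones. DKK1 fell to 14.0% of day 0 in KO cells (difference -2.70, SE 0.12, adjusted p = 1.99e-11) and to 15.4% in NT cells (difference -2.56, SE 0.12, adjusted p = 6.02e-11). Neither KO difference was called, at 0.09 on day 6 (adjusted p = 0.606) and 0.23 on day 0 (adjusted p = 0.209). The day 0 value was called only in the fit of the 2 groups compared (adjusted p = 0.0292). The interaction was -0.14 (adjusted p = 0.597), and ran from -0.29 to -0.02 with 1 library left out.

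DKK3, a divergent DKK family member that is not an established LRP6 antagonist, was lower in KO cells on both days. It (ENSG00000050165.18, chromosome 11, 11963106 to 12009769, minus strand) stood at 3055, 3027 and 3062 in KO and 9566, 9759 and 8997 in NT libraries on day 6, and at 10638, 11195 and 10847 in KO and 14682, 14782 and 15487 in NT libraries on day 0. The 4 groups did not overlap, with NT cells on day 0 highest, then KO on day 0, NT on day 6 and KO on day 6. KO cells had 32.3% of the NT level on day 6 (difference -1.61, SE 0.04, adjusted p = 7.61e-13) and 72.7% on day 0 (difference -0.46, SE 0.04, adjusted p = 2.84e-06). Between the days DKK3 fell to 27.98% in KO cells (difference -1.82, SE 0.04, adjusted p = 9.78e-15) and to 63.0% in NT cells (difference -0.66, SE 0.04, adjusted p = 1.51e-09, and -0.40 after quantile normalisation). Its interaction was -1.15 (SE 0.06, adjusted p = 8.98e-09), close to the -1.14 of WNT5A.

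DKK2, a DKK protein whose effect on LRP6 depends on the cell, was scarce and fell between the days in both genotypes. It (ENSG00000155011.9, chromosome 4, 106921802 to 107283806, minus strand) ranged from 7.90 to 10.8 in KO and 9.34 to 10.9 in NT libraries on day 6, and from 30.6 to 40.2 in KO and 26.8 to 49.5 in NT libraries on day 0. The differences between the days were -0.69 in KO cells (SE 0.12, adjusted p = 1.43e-04) and -0.66 in NT cells (SE 0.12, adjusted p = 2.63e-04) in VST units. On the scale of log2(estimated count + 1) they were -1.75 and -1.64. The KO differences of -0.03 on day 6 and 0.00437 on day 0 were not called (adjusted p = 0.896 and adjusted p = 0.989).

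SFRP1, a soluble decoy that binds Wnt ligands, fell steeply between the days in each genotype. It (ENSG00000104332.12, chromosome 8, 41261958 to 41309497, minus strand) stood at 455, 523 and 612 in KO and 899, 905 and 892 in NT libraries on day 6, and at 5043, 5079 and 5431 in KO and 6116, 6039 and 5822 in NT libraries on day 0. KO libraries lay below NT libraries on both days. SFRP1 fell to 10.2% of day 0 in KO cells (difference -3.17, SE 0.07, adjusted p = 1.59e-14) and to 14.99% in NT cells (difference -2.66, SE 0.07, adjusted p = 2.07e-13). KO cells had 59.0% of the NT level on day 6 (difference -0.71, SE 0.07, adjusted p = 3.52e-06). On day 0 the difference of -0.21 missed the threshold (adjusted p = 0.0695), but passed it without KO replicate 1 of day 6 (adjusted p = 0.0226), without KO replicate 3 of day 6 (adjusted p = 0.0189) and in the fit of the day 0 groups alone (adjusted p = 0.0184). Over all alternatives that p ran from 0.0184 to 0.227. The interaction was -0.51 (SE 0.11, adjusted p = 0.00347).

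SFRP2, a second soluble Frizzled-related protein, followed WNT5A in its grouping. It (ENSG00000145423.5, chromosome 4, 153780592 to 153789120, minus strand) stood at 126, 101 and 130 in KO and 268, 223 and 248 in NT libraries on day 6, and at 664, 747 and 707 in KO and 703, 666 and 672 in NT libraries on day 0. The genotypes overlapped on day 0 and were apart on day 6. SFRP2 fell to 16.9% of day 0 in KO cells (difference -2.15, SE 0.09, adjusted p = 8.58e-12) and to 36.2% in NT cells (difference -1.29, SE 0.09, adjusted p = 5.07e-09). KO cells had 48.3% of the NT level on day 6 (difference -0.81, SE 0.09, adjusted p = 5.28e-06), against a difference of 0.05 on day 0 (adjusted p = 0.763). The interaction was -0.86 (SE 0.12, adjusted p = 2.13e-04).

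AXIN2, a scaffold of the β-catenin destruction complex and the usual readout of canonical signalling, was the one member called higher on day 6 than on day 0. It (ENSG00000168646.13, chromosome 17, 65528563 to 65561647, minus strand) stood at 188, 213 and 206 in KO and 264, 232 and 294 in NT libraries on day 6. On day 0 it stood at 103, 146 and 113 in KO and 60.0, 71.7 and 50.1 in NT libraries. No library of one group reached into another, and the order of the groups was NT on day 6, KO on day 6, KO on day 0 and NT on day 0. KO cells had 1.99-fold the NT level on day 0 (difference 0.64, SE 0.12, adjusted p = 0.00176, and 0.98 on the scale of log2(estimated count + 1)). On day 6 they had 76.9% of it (difference -0.31, SE 0.12), which missed the threshold (adjusted p = 0.0558). The call on day 6 was made in 5 of 20 alternatives, namely the stricter filter (adjusted p = 0.0490), the fit of the day 6 groups alone (adjusted p = 0.0332) and those without NT replicate 2 of day 6 (adjusted p = 0.0396), KO replicate 2 of day 0 (adjusted p = 0.0403) and NT replicate 3 of day 0 (adjusted p = 0.0487). Over all alternatives that p ran from 0.0332 to 0.195. AXIN2 rose 1.68-fold between the days in KO cells (difference 0.57, SE 0.12, adjusted p = 4.70e-04) and 4.35-fold in NT cells (difference 1.52, SE 0.12, adjusted p = 2.39e-08). The difference between these rises, the interaction, was -0.95 (SE 0.17, adjusted p = 0.00110).

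LEF1, a TCF/LEF factor and itself a target of β-catenin, lay just under the limit of the filter and was not tested with the other 9. It (ENSG00000138795.10, chromosome 4, 108047545 to 108168956, minus strand) stood at 3.11, 18.4 and 3.13 in KO and 13.5, 13.5 and 18.4 in NT libraries on day 6. On day 0 it stood at 15.7, 13.6 and 17.2 in KO and 16.01, 10.96 and 23.5 in NT libraries, and neighbouring groups overlapped throughout. DKK2, the tested member nearest the limit, had a mean VST value 1.17 above the floor, and LEF1 had 0.951. With no filter LEF1 was called in none of the 5 comparisons by limma, at unadjusted p of 0.0704 to 0.871 and adjusted p of 0.195 to 1.00.

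Per kilobase of merged exons, which allows levels of different genes to be set side by side, DKK3 was the most abundant member in each group, with 602 ± 3.66 in KO and 1866 ± 78.4 in NT cells on day 6, and 2153 ± 55.7 in KO and 2962 ± 86.7 in NT cells on day 0 (estimated counts per kb, SD, n = 3). WNT5A stood at 93.4 ± 10.9 in KO and 205 ± 8.45 in NT cells on day 6 per kb, and WNT5B at 87.1 ± 10.5 and 102 ± 5.10. On day 0 WNT5A had 749 ± 27.0 in KO and 717 ± 30.3 in NT cells and WNT5B 313 ± 16.5 and 345 ± 13.7. The WNT5A level was thus above that of WNT5B on day 0 in both genotypes and on day 6 in NT cells, and within the spread of it in KO cells on day 6. AXIN2 had 38.7 ± 2.50 in KO and 50.4 ± 5.91 in NT cells on day 6, and 23.1 ± 4.35 in KO and 11.6 ± 2.07 in NT cells on day 0, all per kb.

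The KO and NT cells of day 6 differ in the guide they carry while reprogramming is under way. Their RNA of the OSKM genes differed too (limma). POU5F1, which encodes OCT4, stood at 6211 in KO and 4018 in NT cells (difference 0.62, adjusted p = 0.00234). SOX2 stood at 8092 and 5216 (difference 0.63, adjusted p = 4.08e-05). KLF4 was higher in KO cells by 0.20 (adjusted p = 0.00271) and MYC by 0.13 (adjusted p = 0.0375). The part of this in the differences of the members was not tested. Of the 9 members tested, 5 were lower in KO cells (WNT5A, WNT5B, DKK3, SFRP1 and SFRP2) and 0 were higher, where 36.9% of all genes tested were called, 19.2% lower and 17.7% higher. KO and NT libraries did not overlap for 5 of the 9, all lower, where 49.6% of all genes did not overlap, 24.6% lower and 25.0% higher. These were WNT5A, DKK3, SFRP1, SFRP2 and AXIN2, which was not called, while WNT5B was called but overlapped. The median difference was -0.31 over these 9 and 0.0063 over all genes. On day 0 AXIN2 was called higher and DKK3 and FZD7 lower, and 6 were not called, where 18.2% of all genes were called, 7.42% higher and 10.7% lower. The libraries did not overlap for 6 of the 9 on day 0, 2 higher and 4 lower, where 33.6% of all genes did not overlap, 15.1% higher and 18.6% lower. The median on day 0 was 0.0044 over the 9 and -0.0043 over all genes. When only the day 0 groups were fitted, 5 members were called in place of 3, DKK1 higher and SFRP1 lower being added. No member lies on chromosome 15, which carries MORF4L1 and whose 496 tested genes had a median KO difference of -0.08 on day 6 and -0.13 on day 0.

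**Figure D2:**
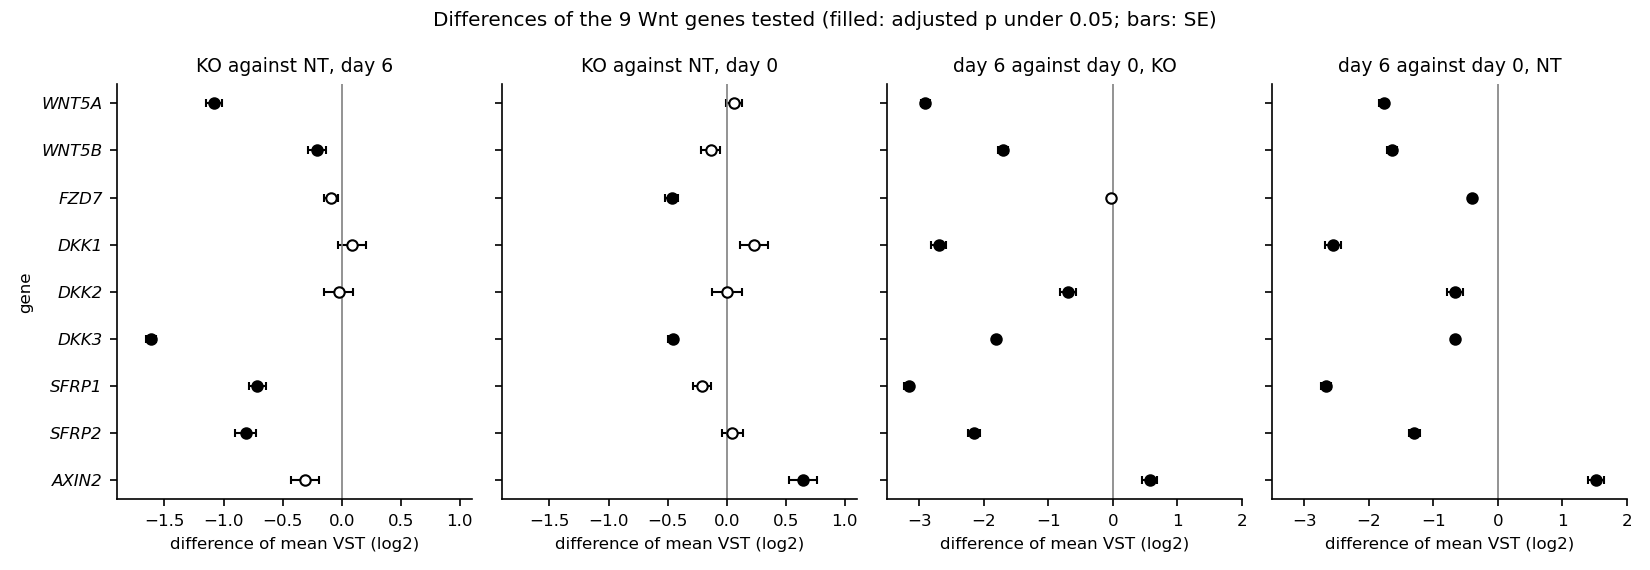
Difference of mean VST values (horizontal axes, log2, with SE) of the 9 members tested in the 4 comparisons of 2 groups, filled where adjusted p was under 0.05. On day 6 the KO differences of WNT5A, DKK3, SFRP1 and SFRP2 lie between -1.61 and -0.71, and between the days AXIN2 lies right of 0 while the DKK, SFRP and WNT5 genes lie left of it.

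The comparisons of day 6 with day 0 ask how these genes moved in the first days of reprogramming. In KO cells 7 of the 9 were lower on day 6 and 1 was higher, with FZD7 not called, where 73.8% of all genes tested were called, 36.2% lower and 37.6% higher. The same 8 did not overlap between the days, where 76.4% of all genes did not, 37.2% lower and 39.2% higher. In NT cells 8 were lower and 1 was higher, where 66.8% were called, 33.1% lower and 33.6% higher. None of the 9 overlapped between the days in NT cells, where 69.6% of all genes did not, 34.7% lower and 34.9% higher. The median difference was -1.82 in KO cells and -1.29 in NT cells over the members, and 0.011 and -0.0023 over all genes. The filter corresponds to 14.4 estimated counts, and 8 of the 9 had a higher mean than that in every group. DKK2 passed it through its day 0 libraries, so the direction of its fall was partly set by the filter.

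The interaction tests whether the KO difference was unequal on the 2 days. It was called for 6 of the 9, 5 of them negative (DKK3, WNT5A, AXIN2, SFRP2 and SFRP1) and 1 positive (FZD7), where 20.3% of all genes tested were called, 11.2% negative and 9.07% positive. The median was -0.51 over the members and 0.0097 over all genes. Of the 10 fibroblast markers 9 had a negative interaction that was called, with a median of -0.91. WNT5B, DKK1 and DKK2 were not called, with interactions of -0.07, -0.14 and -0.03 and SE of 0.11 to 0.18.

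**Figure D3:**
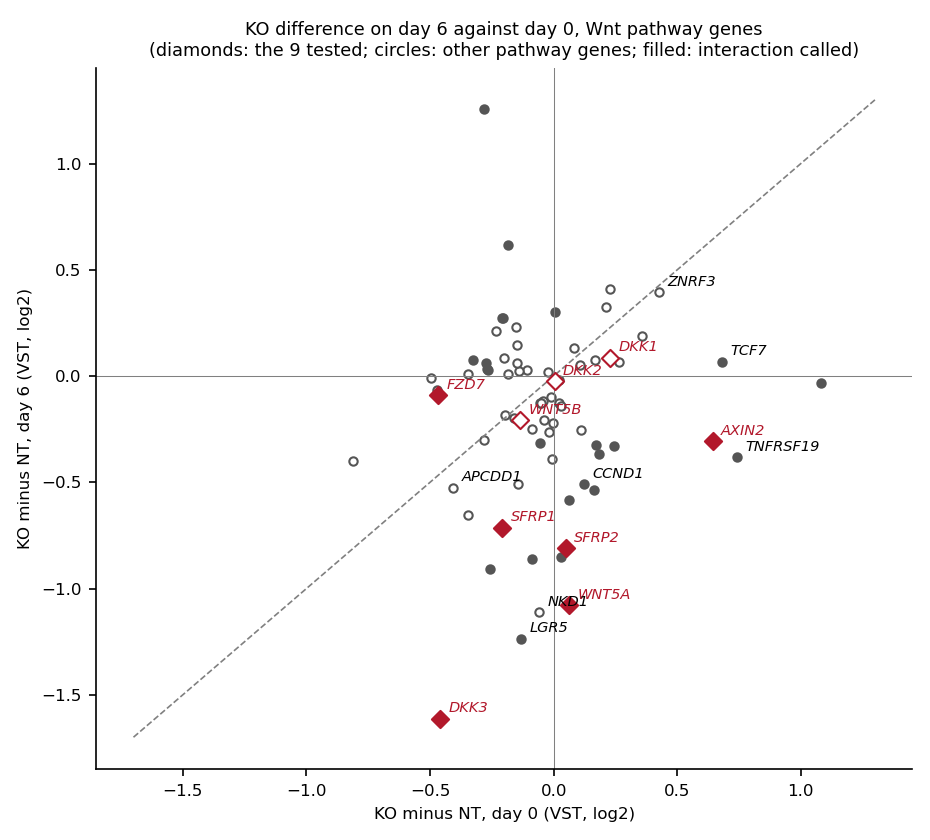
KO minus NT difference on day 6 (vertical axis) against that on day 0 (horizontal axis), both in VST units (log2), for the 9 members tested (diamonds) and 64 other Wnt pathway genes (circles), filled where the interaction was called. Points on the dashed line have equal differences on both days, and WNT5A, SFRP2, DKK3, AXIN2 and TNFRSF19 lie well below it, at interactions of -0.86 to -1.15. Other circles lie well below it too, among them LGR5 (-1.24 on day 6, -0.13 on day 0) and WNT7B (-0.03 and 1.08). Of the 64 circles, the interaction was called negative for 14 and positive for 7.

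A wider list held 85 other genes of the pathway, of which 64 passed the filter. On day 6, 7 of them were higher and 20 lower in KO cells, beside 17.7% and 19.2% of all genes tested. On day 0, 7 were higher and 9 lower, beside 7.42% and 10.7%. The medians were -0.08 on day 6 and -0.05 on day 0. The count of 7 higher became 4 on day 6 without NT replicate 1 of day 6, and 4 on day 0 without KO replicate 1, KO replicate 3 or NT replicate 2 of day 0. Between the days 28 rose and 28 fell in KO cells, where 37.6% of all genes tested rose and 36.2% fell. In NT cells 24 rose and 27 fell, beside 33.6% and 33.1% of all genes. The medians of the 64 were -0.06 in KO and -0.11 in NT cells. Of the other pathway genes that rose, 9 in KO cells and 8 in NT cells averaged under 14.4 estimated counts on day 0. They passed the filter through day 6, so their direction was partly set by it. With the stricter filter 15 of the pathway genes rose in NT cells in place of 24, and over all alternatives that count ran from 15 to 31.

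Of the 17 other ligands, 8 were tested, of which 5 rose and 2 fell in KO cells, and 5 rose and 3 fell in NT cells. The shares over all genes tested were 37.6% higher and 36.2% lower in KO, and 33.6% and 33.1% in NT cells. Of the 5 that rose, WNT9B, WNT10B, WNT11 and WNT16 averaged under 14.4 estimated counts on day 0 in both genotypes and passed the filter through day 6, which partly set their direction, and with the stricter filter 1 ligand rose. With no filter 9 of the other ligands rose in KO and 8 in NT cells. WNT9A rose by 2.72 in NT cells (SE 0.09, adjusted p = 1.14e-12) and was lower in KO than in NT cells on day 6 (-0.54, adjusted p = 2.62e-04). WNT16 rose by 2.77 in NT cells (SE 0.10, adjusted p = 2.10e-12). WNT7B, a ligand able to act through β-catenin, was higher in KO than in NT cells on day 0, at 572, 542 and 502 against 274, 219 and 191 (difference 1.08, SE 0.12, adjusted p = 3.23e-05), and fell by 1.90 between the days in NT cells. WNT16 was at 3.89 to 6.48 in all day 0 libraries.

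Among receptors, falls were more numerous than rises. Of 15 other receptors 14 were tested, of which 4 rose and 9 fell in KO cells and 3 rose and 9 fell in NT cells. Among all genes tested 37.6% rose and 36.2% fell in KO cells, and 33.6% rose and 33.1% fell in NT cells. FZD5 rose by 3.95 in NT cells (SE 0.09, adjusted p = 1.75e-14) and was higher in KO than in NT cells on day 6 (0.62, adjusted p = 7.07e-05). FZD2 fell by 2.34 (SE 0.06) and ROR2, the co-receptor of WNT5A, rose by 2.35 (SE 0.12) in NT cells. LGR5, an R-spondin receptor, fell by 3.40 in NT cells and LGR4 rose by 1.56. On day 6 LGR5 stood at 12.4, 16.3 and 7.54 in KO and 79.9, 60.3 and 90.5 in NT libraries (difference -1.24, SE 0.11, adjusted p = 1.03e-06). ROR1 was lower in KO cells on both days, by 0.66 on day 6 (adjusted p = 2.84e-05) and 0.35 on day 0 (adjusted p = 0.0105).

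Of 11 other antagonists, secreted or at the membrane, 6 were tested, of which 4 rose and 0 fell in each genotype. Beside them, 37.6% of all genes tested rose and 36.2% fell in KO cells, and 33.6% and 33.1% in NT cells. FRZB, another secreted Frizzled-related protein, was among those that rose, unlike the SFRP members. It averaged 58.3 in KO and 45.1 in NT cells on day 6, and 11.3 and 18.9 on day 0. SFRP4, also tested, had 54.6% of its day 0 level on day 6 in KO cells and 43.9% in NT cells, with no overlap between the days. Neither difference was called (adjusted p = 0.107 and adjusted p = 0.0753), though both were after quantile normalisation. Of the 4 that rose, KREMEN2 and SOSTDC1 in both genotypes and FRZB in KO cells averaged under 14.4 estimated counts on day 0, so the filter partly set their direction, and with the stricter filter only KREMEN1 rose. Over all alternatives 1 to 6 of the other antagonists rose in each genotype. KREMEN1, a membrane receptor for DKK proteins, rose by 2.41 in NT cells (SE 0.12, adjusted p = 1.09e-10). In KO against NT cells 0 of the 6 were called on day 6 (limma, with 0 at an unadjusted p under 0.05 and 0 under both other scalings). The share called over all genes tested was 36.9% in that comparison. On day 0 SOSTDC1 was lower by 0.49 (adjusted p = 0.00978). KREMEN1 was higher by 0.36 (adjusted p = 0.0488), with groups that overlapped, a call lost under both other scalings and without any 1 library other than KO replicate 2 and NT replicate 3 of day 0 (adjusted p = 0.0510 to 0.183). Both genes that serve ligand secretion were tested, and PORCN, which attaches the lipid to Wnt proteins, rose by 1.12 in NT cells (SE 0.09).

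**Figure D4:**
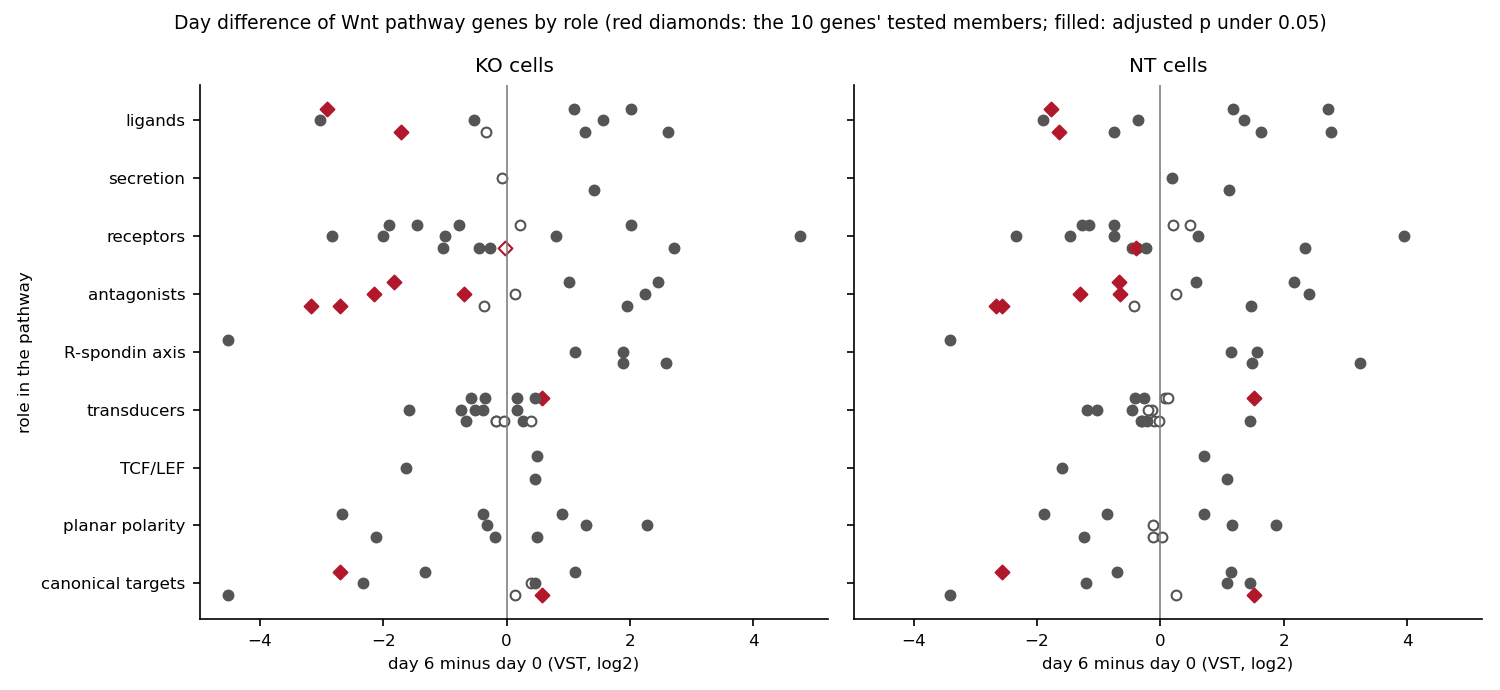
Day 6 minus day 0 difference (horizontal axes, VST units, log2) of Wnt pathway genes by role, in KO cells and in NT cells. Red diamonds are the members tested and circles other genes, filled where adjusted p was under 0.05. Ligands, receptors and antagonists each hold genes on both sides of 0, with the DKK and SFRP members on the left and KREMEN1, KREMEN2 and SOSTDC1 on the right among the antagonists.

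Several known targets of β-catenin other than the members were higher in KO cells on day 0, as AXIN2 was. The members DKK1 (difference 0.23) and LEF1 (-0.03 with no filter) are targets as well, and limma called neither on day 0. The list of 11 targets other than the members was chosen with earlier results of these data known, so its counts are a description. Of these 11 genes 7 were tested, of which 4 were higher and 0 lower on day 0, where 7.42% of all genes were called higher. The 3 not called had negative differences, LGR5 of -0.13, NKD1 of -0.06 and APCDD1 of -0.41 (limma, adjusted p of 0.431 to 0.939). TNFRSF19, a receptor of the TNF family, stood at 1085, 1058 and 996 in KO and 601, 590 and 620 in NT libraries (difference 0.74, SE 0.08, adjusted p = 1.48e-05). TCF7, which encodes the factor TCF1, stood at 335, 298 and 278 in KO and 210, 161 and 143 in NT libraries (difference 0.68, SE 0.12, adjusted p = 0.00143). ZNRF3, a ligase that removes Frizzled receptors, was higher by 0.43 (adjusted p = 0.00836), and CCND1, which encodes cyclin D1, by 0.12 (adjusted p = 0.0406). The CCND1 call was lost without any 1 of the 6 day 0 libraries or KO replicate 3 of day 6 (adjusted p = 0.0531 to 0.121), which leaves 3 genes of the list. KO libraries lay above NT libraries for all 4 of these genes.

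On day 6 the same list held 1 gene higher in KO cells, ZNRF3 (0.40, adjusted p = 0.00600), and 4 lower, where 19.2% of all genes were called lower. The 4 were LGR5, CCND1 (-0.51, SE 0.04, adjusted p = 1.10e-07), TNFRSF19 (-0.38, SE 0.08, adjusted p = 0.00138) and NKD1. NKD1, which antagonises Dishevelled, varied widely, at 34.3, 6.41 and 5.10 in KO and 67.4, 15.4 and 185 in NT libraries, so that the groups overlapped (difference -1.11, SE 0.36, adjusted p = 0.0269). Its call was lost without KO replicate 2 or 3 or NT replicate 1 or 3 of day 6 (adjusted p = 0.0638 to 0.131). The interaction was called negative for TNFRSF19 (-1.12, adjusted p = 6.69e-06), LGR5 (-1.10, adjusted p = 2.41e-04), CCND1 (-0.63, adjusted p = 2.01e-06) and TCF7 (-0.61, adjusted p = 0.0217), and not for ZNRF3 (-0.03, adjusted p = 0.908). The TCF7 call was lost without KO replicate 1 or NT replicate 3 of day 6 or KO replicate 1 of day 0 (adjusted p = 0.0550 to 0.0579). The counts of this list were the same after quantile normalisation and after a shift to a common median. MYC, itself a target, was left out of the list because it was supplied with OSKM.

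For each member the tested gene with the most similar VST values over the 12 libraries was found by Pearson's r, as a description. For SFRP1 it was CITED2 (r = 0.998), for WNT5A ITGB3 (r = 0.998), for SFRP2 KIFC3 (r = 0.998), for WNT5B CXCL12 (r = 0.997), for DKK3 LRRC17 (r = 0.996) and for DKK1 CDH4 (r = 0.995). Such values were common, since 1545 tested genes had r above 0.95 with WNT5A and 1711 with SFRP1, and all share the step between the days. AXIN2 and FZD7 had fewer such partners, with 10 genes above 0.95 for AXIN2, led by CDC25B (r = 0.976), and 1 for FZD7, DNAJC5 (r = 0.960). DKK2 was nearest to FAHD2B (r = 0.985) and LEF1 to GSK3B (r = 0.912).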

How the data were processed

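Libraries of 12 dH1f samples were made with TruSeq Stranded mRNA chemistry, per the labels' protocols. STAR, Salmon and the DESeq2 package were used by the authors with GRCh38, per the submitters' processing notes, which give no versions or roles. The deposited values are on a log2 scale, variance-stabilised by the authors from normalised counts, with a floor of 4.85 for 0 reads. They were inverted to estimated normalised counts, the parametric form of that transformation being assumed. After scaling, 60.1 to 67.3% of a library's low estimates came within 0.1 of whole reads, so no count model was fitted. Symbols and GENCODE 29 coordinates were matched by identifier without its version, and 14845 of 14858 tested genes had a symbol. Promoter sequences are from RefSeq (GRCh38.p14). No promoter window of DKK2, DKK3, SFRP1, AXIN2 or FZD7 was examined.

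All 4 groups entered 1 limma 3.58.1 fit (R 4.3.3, trend option) with 5 two-sided comparisons, and p-values were adjusted by Benjamini-Hochberg over all genes tested. The fit was tested on simulated data. Alternatives changed the filter, scaling, scale, samples, replicate block, or left out each library. The members and lists were chosen with earlier results of these data known, so their counts beside the shares of all genes are descriptions. All 10 members are reported. Other genes were named, for each role, from those called with the largest differences, and not every gene so chosen is mentioned.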

Additional observations from a re-analysis of the deposited data

Results flagged for a closer look

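For 6 members the KO minus NT difference was unequal on the 2 days by the interaction test in limma. The interaction was -1.15 for DKK3, -1.14 for WNT5A, -0.95 for AXIN2, -0.86 for SFRP2, -0.51 for SFRP1 and 0.38 for FZD7 (adjusted p from 8.98e-09 for DKK3 to 0.00349 for FZD7). AXIN2 was the one whose KO libraries all lay below the NT libraries on day 6 and all above them on day 0.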

How the results depend on the processing

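Of 886 alternative values of single members, 849 kept direction and side of the threshold, 13 lost the call, 9 gained it and 15 changed sign, all 15 in differences that were not called. Total counts of called members and of other pathway genes, both directions together, stayed within 1.5 times of those reported, except that 5 members in place of 3 were called on day 0 when only the groups compared were fitted. After quantile normalisation DKK2 had KO differences of 0.12 on day 6 and -0.021 on day 0, and an interaction of 0.14. With 1 library left out, DKK1 on day 6 ran from -0.057 to 0.21, DKK2 from -0.049 to 0.013 on day 6, from -0.080 to 0.14 on day 0 and from -0.16 to 0.054 for the interaction, SFRP2 on day 0 from 0.0097 to 0.088, WNT5B on day 6 from -0.29 to -0.13, the day difference of FZD7 in KO cells from -0.068 to 0.0034 and the interaction of WNT5B from -0.15 to 0.0026 and of DKK1 from -0.29 to -0.021. The cause was not tested. Residuals of libraries with the same replicate number correlated at -0.053 to 0.063, and 7 of 36 best matches to another group had the library's own number, so the numbers were not taken as pairs. With the replicate block the counts of members called were 5, 3, 8, 9 and 6, as without it, for KO against NT on day 6 and day 0, the days in KO and NT cells and the interaction, and no member's call changed. Neither scaling moved the median of all genes by 0.1. Low counts limit DKK2 and LEF1.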
